A study of Homo sapiens with 42 samples.

Results

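The m6A peak maps of HepG2 cells with reduced SETD2, through the first of 2 hairpins, and of HepG2 cells with reduced METTL14 were set directly against each other, without a control between them. Each peak covers 1 or more blocks, the stretches of exon that it spans. It was called private when its blocks had 0 bases in common with any same-strand peak of the other map, and shared otherwise. The SETD2 #1 map held 5716 private peaks among 28645 and the METTL14 map 5992 among 28841. The maps rest on 12 of the 42 libraries of the series.

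HepG2 is a human hepatocellular carcinoma line. Cells were infected with lentivirus carrying a short hairpin RNA (shRNA) and kept under puromycin, so that they are stably selected cultures, with 1 hairpin against each of the 2 targets compared here. Each condition had 3 libraries of RNA pulled down with an antibody against N6-methyladenosine (m6A) and 3 of the unselected input, all from sonicated mRNA with a stranded kit, and it is not said whether the 3 came from separate cultures. The conditions were shSETD2#1, shMETTL14, shMETTL3, shWTAP, shSETD2#2, a non-specific control shRNA, and a further non-specific control made for shSETD2#2, called the second control. The authors' caller, exomePeak, joined the 3 replicates into 1 list per condition, so no value below has a replicate error and no test between conditions could be made. Intervals in brackets are exact Clopper-Pearson 95% intervals over peaks or genes, which cover counting error only and treat the peaks of a gene as independent.

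m6A is laid down on messenger RNA, largely while it is being transcribed, by a complex in which METTL3 is the catalytic subunit, METTL14 helps to bind the RNA, and WTAP tethers the pair. Marks are known to gather near stop codons, in long internal exons and in 3' untranslated regions. SETD2 trimethylates lysine 36 of histone H3 (H3K36me3) over the bodies of transcribed genes, and METTL14 has been proposed to read that histone mark, which is the link between the 2 proteins that a direct comparison addresses. The files pair no gene identifier with a symbol, so loci are named by hg19 position and strand, and the reduction of SETD2 and of METTL14 could not be checked from the peak lists.

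Most peaks of either map had a counterpart in the other. Private peaks made up 20.0% (19.5 to 20.4%) of the SETD2 #1 list and 20.8% (20.3 to 21.2%) of the METTL14 list, while 22929 SETD2 #1 peaks and 22849 METTL14 peaks were shared. Where sharing needed 50% or more of each peak, the private shares were 34.5% for SETD2 #1 and 35.0% for METTL14. Private peaks were narrow, so they held less of the covered sequence, 8.85% of SETD2 #1 peak bases and 10.4% of METTL14 peak bases. Of all bases covered by either map, 65.4% were covered by both. The private peaks lay in 4491 of 12862 genes of the SETD2 #1 list (34.9%, 34.1 to 35.7%) and in 4061 of 12503 genes of the METTL14 list (32.5%, 31.7 to 33.3%). A private peak is one that the caller did not report in the other condition, and calling reflects how deeply a transcript was read and how well it was pulled down besides its methylation. Read depth is unknown from the files.

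Private peaks were mostly weakly supported ones, in both maps alike. With each list split into 5 equal classes by the authors' log10 p of immunoprecipitate over input, 49.4, 31.1, 15.9, 3.07 and 0.279% of SETD2 #1 peaks were private from the weakest to the strongest class, and 50.8, 30.5, 16.4, 5.51 and 0.641% of METTL14 peaks. The 2 weakest classes held 80.7% of SETD2 #1 private peaks and 78.3% of METTL14 private peaks. The maps parted slightly among well supported peaks. At or better than the median p of its list, 548 of 14354 SETD2 #1 peaks were private (3.82%, 3.51 to 4.14%), and 746 of 14467 METTL14 peaks (5.16%, 4.80 to 5.53%).

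**Figure D1:**
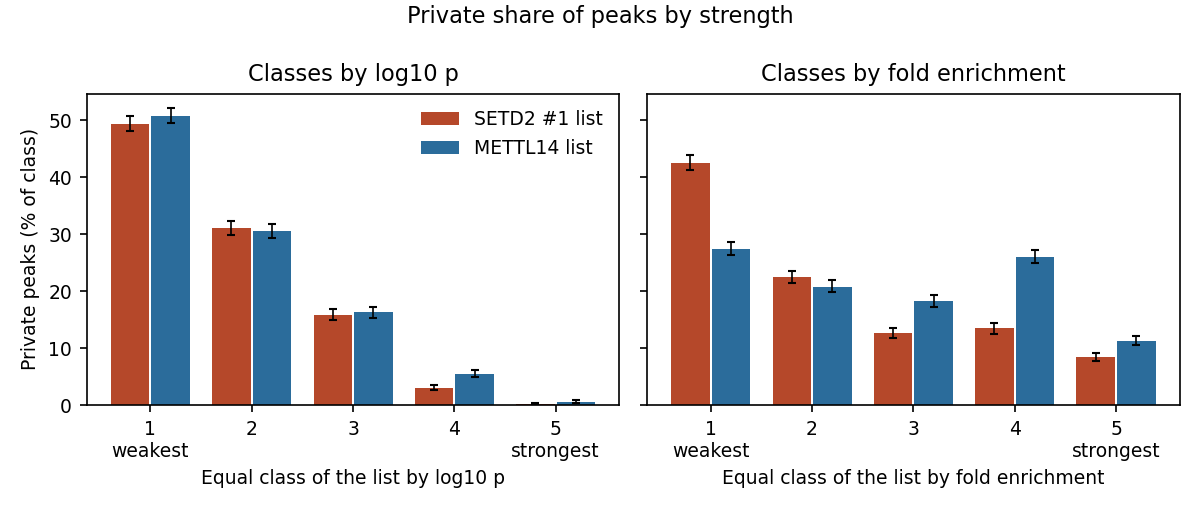
Share of peaks that were private (vertical axis, percent of the class) in 5 equal classes of each list by log10 p (left) and by fold enrichment (right), for SETD2 #1 in red and METTL14 in blue, with exact 95% intervals. By log10 p both lists decline from near 50% to under 1%, while by fold enrichment the METTL14 list has a second high point of 26.0% in class 4.

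The enrichment over input of private peaks, set against shared peaks, differed between the maps. Fold enrichment, like p, is the authors' own value for each peak and is compared here with other peaks of the same list. SETD2 #1 private peaks had a median of 3.05-fold against 5.97-fold for SETD2 #1 shared peaks, whereas METTL14 private peaks had a median of 5.64-fold against 7.02-fold for METTL14 shared peaks. The share of private peaks went through the 5 fold classes of the SETD2 #1 list as 42.6, 22.5, 12.7, 13.5 and 8.45%, so it was lowest at high enrichment. In the METTL14 list it was 27.5, 20.8, 18.3, 26.0 and 11.3%. Median widths were 150 bases for private against 296 bases for shared peaks of SETD2 #1, and 151 against 271 bases for METTL14.

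The private peaks with the best log10 p in the SETD2 #1 list had low enrichment and lay in genes with 2 to 15 SETD2 #1 peaks. The first lay at chr2:21233625-21233834 on the minus strand, with a log10 p of -483 and 1.85-fold enrichment, 179 bases from the nearest METTL14 peak. The next were chr1:230838745-230838923 (minus, log10 p -253, 1.92-fold) and chr7:5567260-5567469 (minus, log10 p -249, 1.95-fold). All 10 peaks named by this rule had between 1.23-fold and 2.64-fold enrichment, all 10 stood in genes that also had METTL14 peaks, and of the 10, 5 recurred in METTL3, 0 in WTAP, 9 in SETD2 #2, 7 in the control and 6 in the second control. Over all SETD2 #1 private peaks, 29.1% recurred in WTAP and 54.4% in SETD2 #2. A pair of them, at chr14:95090153-95090272 and chr14:95090150-95090269 on the plus strand, is 1 locus listed under 2 overlapping genes. Among SETD2 #1 private peaks at or better than the median p, the highest enrichments were 19.3-fold for an opposite-strand pair at chr19:58513789-58514269 (plus) and chr19:58513849-58514268 (minus), 18.1-fold at chr1:246887349-246890194 (plus) and at chrX:57021733-57021970 (minus), and 16.8-fold at chr22:42674314-42674792 (plus). These 5 recurred in WTAP in 5 cases and in SETD2 #2 in 3, the reverse of the order among the 10.

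The METTL14 private peaks chosen in the same way came from a list with higher enrichment throughout. The median over all its peaks was 6.71-fold, against 5.32-fold in the SETD2 #1 list, so the fold values of named peaks are not compared between the maps. The best log10 p, -391, belonged to chr5:179263359-179263539 on the minus strand, with 6.23-fold enrichment, 627 bases from the nearest SETD2 #1 peak. The next was chr1:6478340-6479027 (minus, log10 p -177, 197-fold), in a gene with 3 METTL14 peaks and 0 SETD2 #1 peaks, and it recurred in all 5 remaining lists. The 10 peaks by this rule ranged between 2.08-fold and 256-fold, and of the 10, 9 recurred in METTL3, 10 in WTAP, 5 in SETD2 #2, 6 in the control and 4 in the second control. Over all METTL14 private peaks, 59.5% recurred in WTAP and 19.2% in SETD2 #2. The 5 highest enrichments at or better than the median p included 256-fold at chr19:44280965-44285200 (minus, 2 blocks) and the 197-fold peak named above. The others were 234, 218 and 160-fold at chr14:105411167-105413566, chr14:105415755-105417014 and chr14:105417074-105419652 (all minus), which are parts of 1 gene. Of these 5, 5 recurred in WTAP, 4 in the second control, and 2 each in METTL3, SETD2 #2 and the control. Transcript levels were not analysed here.

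The place of private peaks along the gene differed between the maps. In genes with 2 or more peaks in the same list, peaks were called 5'-most, inner or 3'-most by their order along the strand. Of SETD2 #1 peaks, 17.6% (16.7 to 18.5%) of the 5'-most, 17.2% (16.4 to 18.0%) of the inner and 21.4% (20.4 to 22.3%) of the 3'-most were private. Of METTL14 peaks, 21.4% (20.5 to 22.4%) of the 5'-most, 25.2% (24.4 to 26.1%) of the inner and 15.4% (14.5 to 16.2%) of the 3'-most were private. SETD2 #1 private peaks thus leaned to the 3' end, and METTL14 private peaks to the middle. Inner peaks occur only in genes with 3 or more peaks. In those genes the 5'-most, inner and 3'-most private shares were 15.7, 17.2 and 20.3% for SETD2 #1. For METTL14 they were 22.8, 25.2 and 15.9%, so the inner share stood closer to the 5'-most one. The order of peaks was taken within each list with its private peaks included. Where a gene had 1 peak, that peak was private in 25.4% (24.3 to 26.6%) of cases in the SETD2 #1 list and 19.3% (18.3 to 20.4%) in the METTL14 list.

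This held among peaks of like support. In the second weakest log10 p class, SETD2 #1 private shares were 21.9% of 5'-most, 30.2% of inner and 41.3% of 3'-most peaks, and METTL14 private shares were 28.4, 40.3 and 27.8% of the same places. In the middle class they were 10.2, 14.3 and 22.4% for SETD2 #1 and 12.1, 26.5 and 13.7% for METTL14. In each of the 5 classes the private share was higher at the 3'-most than at the inner peaks in the SETD2 #1 list, and lower in the METTL14 list. In the strongest class the counts were small, with 8 private of 1844 3'-most peaks and 7 of 1828 inner peaks for SETD2 #1, and 9 of 1766 and 23 of 2091 for METTL14.

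A finer scale showed both ends of the SETD2 #1 list raised. Peak centres of genes with 2 or more peaks were placed in 10 equal bins between the outer ends of all peaks of the gene over the 7 lists. In the last bin, 22.3% (21.3 to 23.2%) of SETD2 #1 peaks and 16.5% (15.7 to 17.4%) of METTL14 peaks were private. In the seventh, the private share was 17.2% (15.1 to 19.5%) for SETD2 #1 and 27.6% (25.2 to 30.1%) for METTL14. In the first bin, 21.0% (19.8 to 22.2%) and 23.9% (22.6 to 25.1%) were private in SETD2 #1 and METTL14. In bins 2 to 6, the SETD2 #1 share lay between 12.9 and 15.8%, below its first and last bins. In the METTL14 list the last bin was the lowest, and the seventh the highest. The distances include introns, and no transcript annotation of the files' build was at hand, so bins are not coding or untranslated regions.

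**Figure D2:**
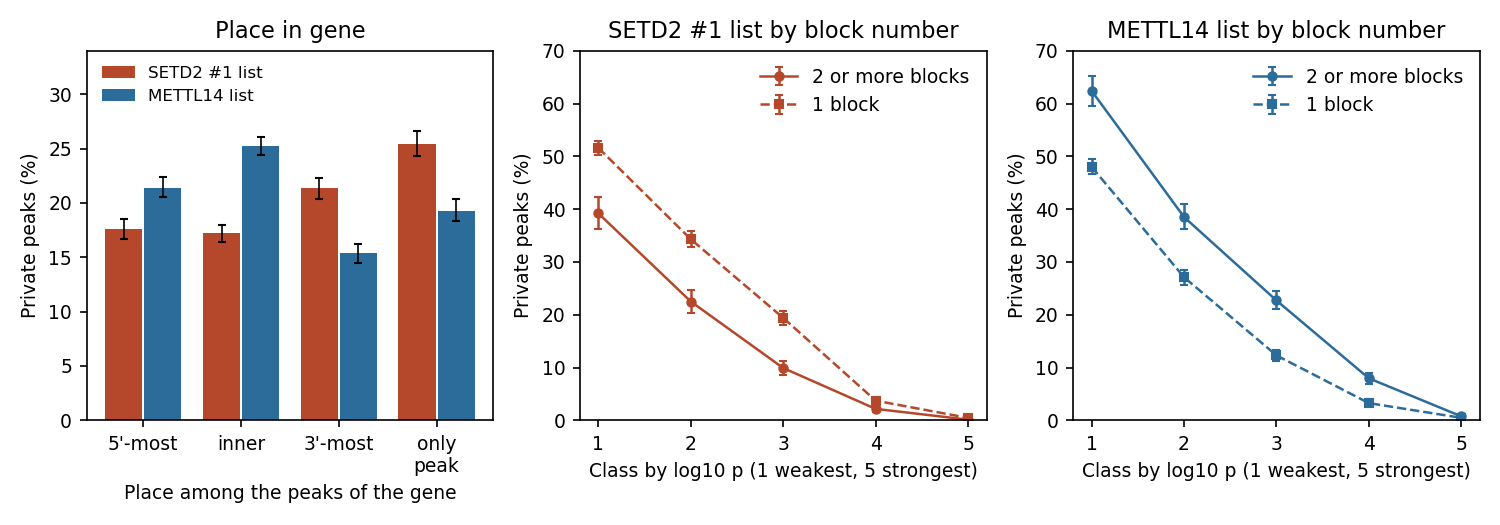
Share of peaks that were private by place among the peaks of the gene (left, SETD2 #1 red, METTL14 blue), and by number of blocks within 5 classes of log10 p for the SETD2 #1 list (middle) and the METTL14 list (right), with exact 95% intervals. The 3'-most bar is higher for SETD2 #1 (21.4 against 15.4%) and the inner bar for METTL14 (17.2 against 25.2%), and the lines for peaks of 2 or more blocks lie below those of 1 block in SETD2 #1 and above them in METTL14.

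Spliced peaks were divided unevenly. A peak of 2 or more blocks crosses at least 1 exon junction. Such peaks made up 17.7% (16.8 to 18.8%) of SETD2 #1 private peaks against 40.2% (39.5 to 40.8%) of SETD2 #1 shared peaks, but 35.6% (34.4 to 36.8%) of METTL14 private peaks against 40.3% (39.7 to 41.0%) of METTL14 shared peaks. Peaks of 3 or more blocks numbered 154 among SETD2 #1 private peaks (2.69%) and 622 among METTL14 private peaks (10.4%). Within classes of log10 p the difference by block number was smaller in the SETD2 #1 list and turned round in the METTL14 list. In the weakest class, 39.2% of SETD2 #1 peaks with 2 or more blocks and 51.6% of those with 1 block were private, against 62.4 and 48.0% in the METTL14 list. In the middle class these shares were 9.91 and 19.4% for SETD2 #1 and 22.7 and 12.3% for METTL14. The direction in the METTL14 list therefore depended on the grouping, since over all classes together 18.8% of its peaks with 2 or more blocks and 22.1% of those with 1 block were private.

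The number of peaks in the gene ran opposite ways too. In genes with 1, 2, 3 to 4, 5 to 7 and 8 or more SETD2 #1 peaks, 25.4, 21.2, 18.8, 16.3 and 14.3% of those peaks were private. In the same bins of METTL14 peaks per gene, the private share was 19.3, 17.2, 20.2, 23.6 and 29.1%. SETD2 #1 private peaks thus took a smaller share in genes with many peaks, and METTL14 private peaks a larger one. The counts that set these bins include the private peaks themselves, so a gene with many private peaks moves to a higher bin.

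At the level of genes, 1529 of 12862 genes of the SETD2 #1 list had no METTL14 peak (11.9%, 11.3 to 12.5%), and 1170 of 12503 genes of the METTL14 list had no SETD2 #1 peak (9.36%, 8.85 to 9.88%). Most were genes of 1 peak, 83.7% for SETD2 #1 and 76.6% for METTL14. Genes of 1 peak were 5551 of all 12862 genes of the SETD2 #1 list and 5433 of all 12503 of the METTL14 list. Genes with 3 or more peaks in 1 map and 0 in the other numbered 48 for SETD2 #1 and 118 for METTL14. All genes with 3 or more peaks numbered 3979 in the SETD2 #1 list and 4000 in the METTL14 list. Most private peaks, 68.2% (67.0 to 69.4%) for SETD2 #1 and 72.4% (71.2 to 73.5%) for METTL14, lay in genes that also had a peak in the other list. Genes with 3 or more private peaks numbered 219 (1.70%) in the SETD2 #1 list and 426 (3.41%) in the METTL14 list. Across the 11333 genes with peaks in both maps the numbers balanced, with more SETD2 #1 peaks in 2557 genes (22.6%), more METTL14 peaks in 2525 (22.3%) and equal numbers in 6251 (55.2%).

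The gene with the most SETD2 #1 private peaks, ENSG00000117724.12, whose peaks span chr1:214776538-214837272 on the plus strand, had 14 SETD2 #1 peaks, 9 of them private, and 5 METTL14 peaks. Its peaks numbered 7 in the METTL3 list, 5 in WTAP, 15 in SETD2 #2, 11 in the control and 10 in the second control. The next gene, ENSG00000118058.20 (chr11:118342945-118396199, plus), had 9 SETD2 #1 peaks, 7 of them private, and 2 METTL14 peaks, with 7 in METTL3, 3 in WTAP, 10 in SETD2 #2, 11 in the control and 8 in the second control. In both genes the METTL14 and WTAP lists were the short ones. The authors' enrichment of the SETD2 #1 peaks in these 2 genes ranged between 1.69 and 8.72-fold in the first gene and between 2.05 and 6.35-fold in the second. Over the 10 genes chosen by this rule there were 5 to 9 private SETD2 #1 peaks each. The genes with the most SETD2 #1 peaks and 0 METTL14 peaks had 5 peaks (chr8:25042238-25270353, plus) or 4, and all 10 of them had peaks in the control list.

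METTL14 private peaks were more heaped. ENSG00000142798.17 (chr1:22148738-22263700, minus) had 16 of them, among 21 METTL14 peaks, and 6 SETD2 #1 peaks, and 13 of the 16 crossed an exon junction. Its peaks numbered 14 in METTL3, 20 in WTAP, 5 in SETD2 #2, 6 in the control and 7 in the second control. ENSG00000185567.6 (chr14:105404151-105423835, minus) had 15 private METTL14 peaks, 1 of which crossed a junction, and a count of 4 in SETD2 #1, 18 in METTL14, 0 in METTL3, 18 in WTAP, 3 in SETD2 #2, 6 in the control and 5 in the second control. In both genes METTL14 and WTAP had the longest lists and the counts of SETD2 #1 lay near those of both controls. METTL3 differed between them, with 14 peaks in the first gene, above both controls, and 0 in the second.

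A set of 4 genes had 10 METTL14 peaks each and 0 SETD2 #1 peaks. At chr15:43814857-43823519 (plus), the counts were 0 in METTL3, 9 in WTAP, 2 in SETD2 #2 and 0 in both controls. At chr14:23990334-24025401 (minus), they were 6 in METTL3, 6 in WTAP, 3 in SETD2 #2, 11 in the control and 4 in the second control, so that there the SETD2 #1 list stood alone without a peak. At chr13:114056798-114062364 (minus) they were 6 in METTL3, 7 in WTAP, 0 in SETD2 #2, 5 in the control and 0 in the second control, and at chr16:2325912-2390598 (minus) 0 in METTL3, 6 in WTAP, 0 in SETD2 #2, 1 in the control and 0 in the second control. The lists give no input level for a gene without peaks, so absence of the transcript and absence of the mark cannot be told apart at these loci.

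Private peaks of both maps stood in 883 genes, 19.7% of the genes with a SETD2 #1 private peak and 21.7% of those with a METTL14 private peak. These shares lay below those over whole lists. Over all genes of the METTL14 list, 32.5% had a METTL14 private peak, and over all genes of the SETD2 #1 list, 34.9% had a SETD2 #1 one. The genes counted here also include some without any peak in the other list. In 553 of the 883 (62.6%, 59.3 to 65.8%) the SETD2 #1 ones lay on average further 3', and in 330 (37.4%) the METTL14 ones did. In the 46 genes with 2 or more of each, the SETD2 #1 peaks lay further 3' in 26 (56.5%, 41.1 to 71.1%), an interval that includes an even split. The gene with the most such peaks, at chr3:49662460-49708168 on the plus strand, had 4 private SETD2 #1 peaks among 15 and 3 private METTL14 peaks among 17. Next came chr19:14259125-14316969 (minus) with 2 private SETD2 #1 peaks and 4 private METTL14 peaks, and chr22:38111839-38169984 (plus) with 4 private SETD2 #1 peaks and 2 private METTL14 peaks.

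Few calls hung on a narrow miss. Of private peaks, 4.71% (4.17 to 5.29%) in SETD2 #1 and 5.39% (4.83 to 5.99%) in METTL14 lay within 100 bases of a peak of the other list on the same strand, and 32.2 and 33.5% within 1000 bases. The median gap was 6845 bases for SETD2 #1 and 3432 bases for METTL14, introns included. At the threshold itself, 2 SETD2 #1 and 5 METTL14 private peaks lay within 10 bases of a peak of the other list, with median log10 p of -7.07 and -6.89. Just inside, 76 SETD2 #1 and 94 METTL14 peaks were shared through at most 10 bases, with median log10 p of -2.98 and -3.08.

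The remaining 5 lists, which the choice of private peaks did not use and which share no library with it, held the private peaks to different degrees. SETD2 #1 private peaks overlapped a peak in 52.7% of cases in the METTL3 list, 29.1% in WTAP, 54.4% in SETD2 #2, 74.3% in the control and 57.8% in the second control. For METTL14 private peaks these shares were 52.0, 59.5, 19.2, 52.5 and 26.7% in the same order. Shared peaks of either map were found in 93.0 to 96.5% of cases in METTL3, WTAP and the control. In SETD2 #2 they were found in 78.4 and 79.2%, and in the second control in 83.7 and 84.4%, for SETD2 #1 and METTL14. The searched lists also differed in size, from 8541052 bases in SETD2 #2 to 12233842 in the control, with 9849422 in WTAP. Shares are therefore best compared between the maps within a list. METTL3 thus held both kinds about equally, WTAP held METTL14 private peaks more often, and SETD2 #2 and both controls held SETD2 #1 private peaks more often. Peaks found in 0 of the 5 lists made up 10.3% (9.56 to 11.2%) of SETD2 #1 private peaks and 16.6% (15.7 to 17.6%) of METTL14 private peaks. Among shared peaks they made up 0.379% for SETD2 #1 and 0.350% for METTL14.

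Private peaks at or better than the median p were set beside all private peaks of the same map. SETD2 #1 ones were found more often than all SETD2 #1 private peaks in each of the 5 lists. METTL14 ones were found more often than all METTL14 private peaks in METTL3 and WTAP, with overlapping intervals in the remaining 3. Of the 548 SETD2 #1 ones, 80.8% were found in METTL3, 47.8% in WTAP, 82.1% in SETD2 #2, 89.2% in the control and 77.6% in the second control. Of the 746 METTL14 ones, 76.0% were found in METTL3, 88.7% in WTAP, 20.6% in SETD2 #2, 55.9% in the control and 24.8% in the second control. The METTL14 private peaks were therefore the ones that the SETD2 #2 and second control maps mostly lacked. Of all of them, 67.9% (66.7 to 69.0%) were in neither, against 33.1% (31.9 to 34.4%) of SETD2 #1 private peaks. Of shared peaks, 12.3% of METTL14 ones and 13.2% of SETD2 #1 ones were in neither. SETD2 #2 and the second control are the pair set apart by the labels as having a control of their own, and whether they were also prepared or sequenced apart is not given.

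**Figure D3:**
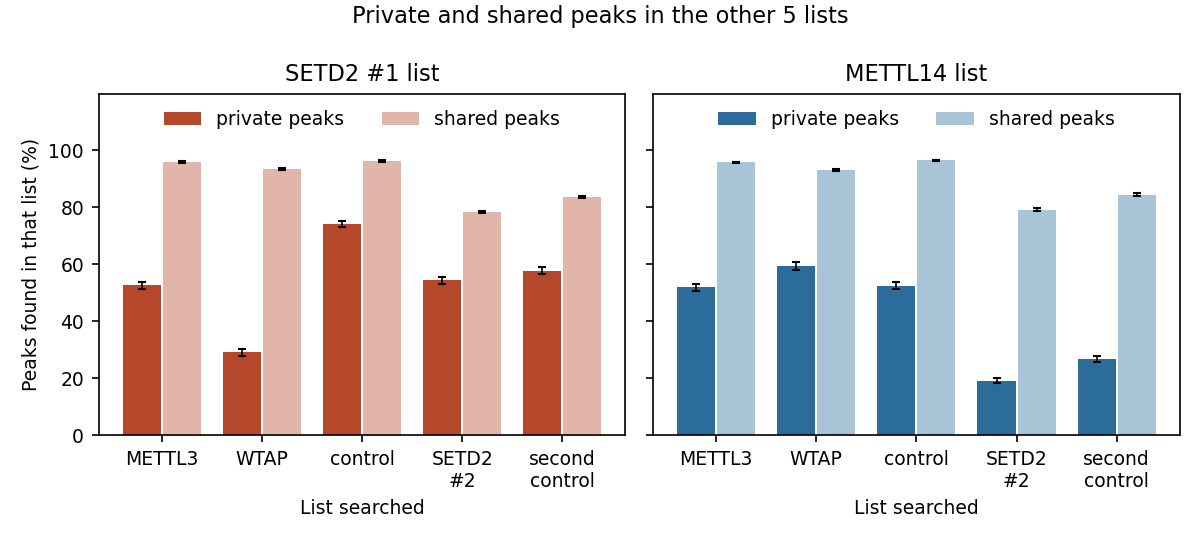
Share of private (dark) and shared (pale) peaks that overlapped a peak of each of the other 5 lists, for SETD2 #1 (left, red) and METTL14 (right, blue), with exact 95% intervals. Private SETD2 #1 peaks are highest in the control (74.3%) and lowest in WTAP (29.1%), and private METTL14 peaks are highest in WTAP (59.5%) and lowest in SETD2 #2 (19.2%).

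Whole maps were also set beside each other. The bases covered by both of a pair of maps, as a share of those covered by either, were 71.4% for SETD2 #1 with METTL3, 64.8% with WTAP, 56.0% with SETD2 #2, 67.9% with the control and 58.5% with the second control. For METTL14 they were 71.2% with METTL3, 74.5% with WTAP, 46.3% with SETD2 #2, 62.1% with the control and 50.1% with the second control. Of these 5, the METTL14 map had the largest overlap with WTAP, and the SETD2 #1 map with METTL3.

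Private and shared peaks were also compared through libraries that neither map used, the second control and SETD2 #2. Second control peaks that overlapped a private peak were looked up in the SETD2 #2 list and set beside second control peaks of the same log10 p class that overlapped a shared peak. For SETD2 #1 private peaks the share absent from SETD2 #2 was 48.9, 24.9, 9.35, 2.37 and 0% from the weakest to the strongest class, against 45.1, 25.5, 9.26, 1.45 and 0.0839% for shared peaks. For METTL14 private peaks, the share absent was 65.1, 47.3, 27.9, 12.1 and 0%, against 45.9, 25.9, 9.46, 1.44 and 0.0840% for shared peaks. Second control peaks at METTL14 private peaks were thus missing from the SETD2 #2 map more often than those at shared peaks of like support. This stood in 4 of 5 classes, and the fifth held 24 peaks, where 0 absent allows up to 14.2%. METTL14 private peaks were chosen by absence from a SETD2 knockdown map, so a higher absent share can follow from that choice. SETD2 #1 private and shared peaks were all present in that map, so the look-up is not alike for the maps. No other knockdown was looked up, so loss with SETD2 knockdown cannot be told apart from sites seldom called in any map.

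Summed over classes, 692 of 1484 second control peaks at METTL14 private peaks were absent from SETD2 #2 (46.6%, 44.1 to 49.2%), where the shared peaks' class shares give 28.0%, a difference of 18.6 percentage points. At SETD2 #1 private peaks 654 of 3114 were absent (21.0%, 19.6 to 22.5%), where the class shares give 20.1%, a difference of 0.884 points that lies within the interval. With classes of second control peaks by fold enrichment in place of log10 p, the difference was 34.8 points for METTL14 and 7.51 points for SETD2 #1, so for SETD2 #1 the call depends on the classes used. For METTL14 the difference was 21.9 points among second control peaks of 1 block and 11.9 points among those of 2 or more. This look-up was added after the data had been seen. METTL14 private peaks that the second control held were a minority, 26.7%.

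**Figure D4:**
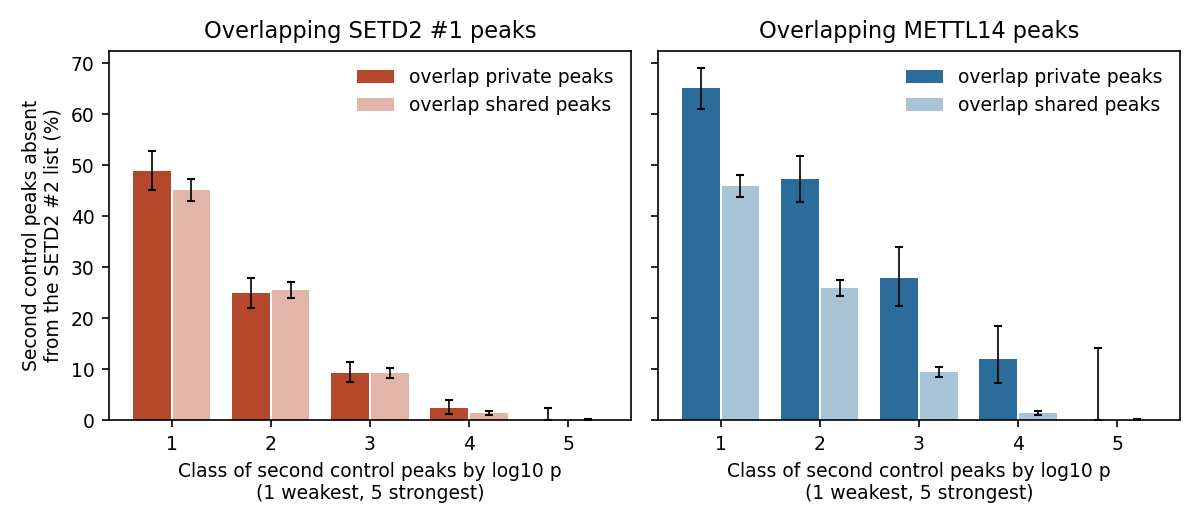
Share of second control peaks absent from the SETD2 #2 list, in 5 equal classes of the second control by log10 p, where they overlap private (dark) or shared (pale) peaks of SETD2 #1 (left, red) or METTL14 (right, blue), with exact 95% intervals. The bars of a pair are alike for SETD2 #1 (48.9 and 45.1% in the weakest class), while for METTL14 the private bar is higher in classes 1 to 4 (65.1 and 45.9% in the weakest class).

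Private peaks were spread unevenly over chromosomes. The SETD2 #1 private share ranged over the autosomes between 14.3% on chromosome 19 and 34.1% on chromosome 13, with a median of 21.2%. The METTL14 private share ranged between 14.6% on chromosome 6 and 24.4% on chromosome 17, with a median of 20.6%. The SETD2 #1 share was the higher on 13 of 22 autosomes. On chromosome 19, 14.3% (12.9 to 15.7%) of SETD2 #1 peaks and 24.2% (22.6 to 25.8%) of METTL14 peaks were private, and on chromosome 17, 15.0% (13.5 to 16.6%) and 24.4% (22.7 to 26.1%). The reverse order stood on chromosome 13, with 34.1% (29.1 to 39.4%) for SETD2 #1 and 22.8% (18.2 to 27.9%) for METTL14, and on chromosome 4, with 27.3% (24.1 to 30.6%) and 17.6% (14.8 to 20.8%). Chromosomes 17 and 19 are known to be gene-rich and 4 and 13 gene-poor. Gene density was not measured for any chromosome, and its relation to the private shares was not tested.

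**Figure D5:**
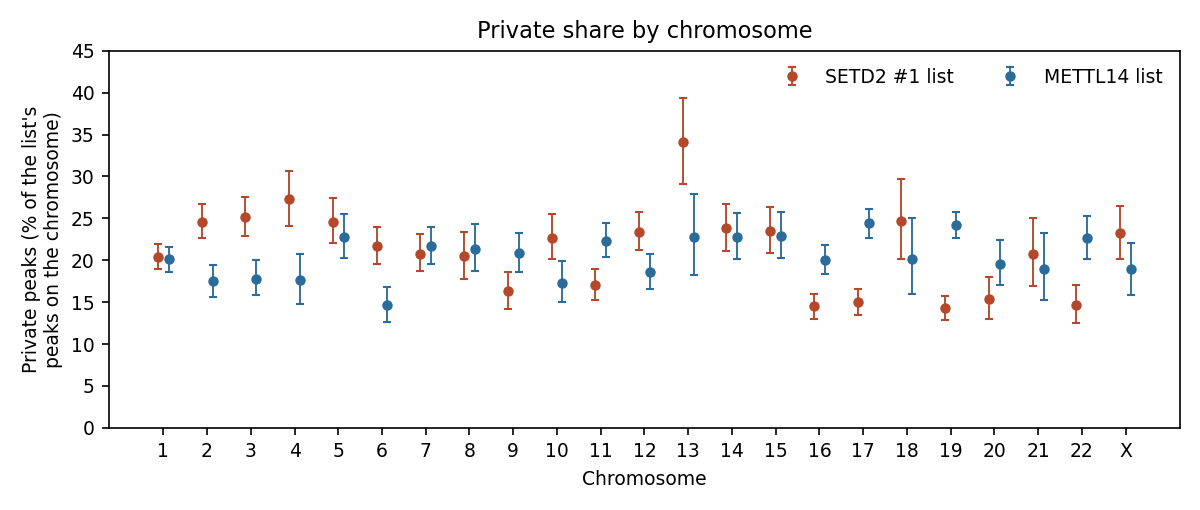
Private share of the peaks of each chromosome (percent, vertical axis) for SETD2 #1 (red) and METTL14 (blue), with exact 95% intervals. The intervals do not overlap on chromosomes 2, 3, 4, 6, 10, 12 and 13, where SETD2 #1 lies higher (34.1 against 22.8% for METTL14 on chromosome 13), and on chromosomes 11, 16, 17, 19 and 22, where SETD2 #1 lies lower (14.3 against 24.2% for METTL14 on chromosome 19).

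Peaks found in both maps differed in their edges. Of 18286 peaks matched 1 to 1, 43.5% (42.8 to 44.2%) were wider and 36.9% (36.2 to 37.6%) narrower in SETD2 #1 than in METTL14, and 19.6% had the same width. In the 10223 pairs of 1 block in both maps, the 3' end reached further out in SETD2 #1 in 44.1% (43.2 to 45.1%) and in METTL14 in 21.7% (20.9 to 22.5%). The 5' end reached further out in SETD2 #1 in 35.6% (34.7 to 36.6%) and in METTL14 in 27.0% (26.1 to 27.9%). SETD2 #1 peaks thus extended further at both ends in more pairs, and the imbalance was greater at the 3' end.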

How the data were processed

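Each of the 7 conditions had 3 input and 3 immunoprecipitated libraries. FastQC 0.11.5, TopHat2 2.1.1 and the build hg19 are listed by the submitters' processing notes, without their roles. Per the labels, the authors ran exomePeak on replicates 1 to 3 jointly. Its version is not given in the sources used here, nor is the gene annotation. The deposited tables hold per peak a p-value, its log10 and the log10 of the FDR (both scores with no fixed range), and the fold enrichment of immunoprecipitate over input as a linear ratio, per the file headers. The highest FDR was 0.0501 in SETD2 #1 and 0.0490 in METTL14. Repeats of strand and blocks were dropped, 16 from SETD2 #1 and 14 from METTL14. Overlap was computed with bedtools 2.31.1, shares with pandas 2.3.3 and numpy 2.4.6, intervals with scipy 1.17.1 and figures with matplotlib 3.10.9, all under Python 3.11.15. Read depth is unknown. There was no test between conditions. Widths count block bases.

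Tested on simulated data, with 5661 of 28645 SETD2 #1 peaks removed at random, the call found 93.6% of them private and 0 of the kept ones. The missed ones overlap another peak of the list. Each kept peak met its own copy, so the 0 was set in advance. The check covers the overlap step only, not private calls between separately called maps.

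Named peaks are the 10 private peaks per list with the best log10 p and the 5 with the highest fold among those at or better than the median p. Named genes are the 10 per list with the most private peaks, the 10 with the most peaks and 0 in the other list, and the 5 with the most private peaks of both, ties by log10 p. None of the 17005 gene identifiers could be paired with a symbol, so gene lists (m6A writers and readers, H3K36 methylation, hepatocyte genes and others) and HepG2 markers, though planned, were not applied, and no sequence is shown. The comparison, its members and the lists were chosen with earlier results of these data known.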

Additional observations from a re-analysis of the deposited data

How the results depend on the processing

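No paired analysis was possible because the lists join replicates 1 to 3, and for the same reason no replicate was left out. Transcript regions and gene lists were not run, for want of an annotation. The comparison by block number and the second control look-up, with their alternatives, were chosen after seeing the data. Read depth is unknown, so what it limits was not measured.

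Of 66 alternative values 23 moved by less than the counting interval, among them overlap by whole spans, on either strand, with repeats kept and with lists of equal length. Where sharing needed 50% or more of each peak, the private share was 34.5% for SETD2 #1 and 35.0% for METTL14, and with an FDR of at most 1e-05 19.0 and 19.6%. With at least 3-fold enrichment it was 19.9% for SETD2 #1 and 26.2% for METTL14, so the maps parted more under that cut. The cut takes unlike parts of the lists, since the weakest of the 5 fold classes ended at 2.70-fold in SETD2 #1 and 3.05-fold in METTL14. What this adds to the difference was not tested. In the shorter lists it was 18.8% for SETD2 #1 and 20.6% for METTL14. Classes by fold gave private shares of 42.6 and 27.5% in the weakest and 8.45 and 11.3% in the strongest class for SETD2 #1 and METTL14. Genes without any overlapping peak made up 13.2% for SETD2 #1 and 10.8% for METTL14.

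The 3'-most minus inner private share was 4.16 points for SETD2 #1 and 6.31 as a mean over log10 p classes. For METTL14 it was -9.88, and -5.99 for the last minus the middle of 3 equal stretches. The share of peaks with 2 or more blocks minus that with 1 was -15.6 points for SETD2 #1 and -7.12 as a mean over classes. For METTL14 it was -3.28 and turned to 8.25 as a mean over classes. Peaks of 2 or more blocks numbered 1120 of 5768 in its weakest class and 3455 of 5769 in its strongest.

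Sharing and finding were both set to need 50% or more of each peak, which made more peaks private. SETD2 #1 private peaks were then in METTL3 in 41.8%, WTAP 23.6%, SETD2 #2 37.4%, the control 48.0% and the second control 39.9%. For METTL14 private peaks these shares were 39.6, 48.6, 13.8, 30.3 and 18.3%. Under the main overlap rule, private peaks at or better than the median p gave 80.8, 47.8, 82.1, 89.2 and 77.6% for SETD2 #1. For METTL14 they gave 76.0, 88.7, 20.6, 55.9 and 24.8%. Of peaks matched with 50% or more of each, 42.5% were wider in SETD2 #1.

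For second control peaks at SETD2 #1 private peaks, the difference of 0.884 points became 7.51 with classes by fold, -3.85 among inner peaks and -1.13 where overlap needed 50% or more of each peak, so it has no settled sign. At METTL14 private peaks the 18.6 points became 34.8 with classes by fold, 21.9 for 1 block and 11.9 for 2 or more, and were between 17.2 and 18.0 under the other 4. Causes of these shifts were not tested.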
